A study of Mus musculus with 6 samples.

Results

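A set of 8 genes that encode stress-induced hormones, angiopoietin-like factors and a lipoprotein receptor were followed in mouse cells treated with a FSCN1 inhibitor. They are Gdf15, Fgf21, Angptl6, Angptl4, Angptl2, Stc1, Stc2 and Vldlr, and all 8 were found by symbol among the 16880 genes of the expression table. The 8 genes were chosen by their read counts and TPM in the same comparison that is described here, with its results known. Their own differences are therefore given as a description without a test. RNA was sequenced from 6 cultures labelled as ATDC5, a mouse chondrogenic cell line, all treated with the inflammatory cytokine IL-1β at 10 ng/mL. In 3 of them, called the inhibitor-treated libraries, NP-G2-044 was added at 10 μmol/L, and the other 3 are called the IL-1β libraries. The methods give 24 h of treatment and describe the cells as chondrocytes, and the treatment label of the inhibitor group reads NP-G2-047 where its titles read NP-G2-044. All 6 libraries received IL-1β, and a DMSO group that the methods name was not analysed here, so that the comparison shows the inhibitor on top of the cytokine and nothing about IL-1β itself. ATDC5 is 1 cell line, and the methods call the 3 libraries of a group biological replicates without saying how the cultures were separated.

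The libraries held 16615824 to 16878164 estimated reads in the IL-1β group and 17529844 to 17735860 in the inhibitor group. Means are given ± SD over the 3 libraries of a group (n = 3 throughout). Fscn1, which encodes the protein that the inhibitor binds, was at 616.2 ± 9.46 TPM with IL-1β and at 252.4 ± 2.47 TPM with the inhibitor. TPM is a level scaled to gene length and to the total of a library, and every comparison of levels between genes below uses it. Of 12 chondrocyte markers, 7 are in the table, and their summed level was 11.7 to 12.6 TPM with IL-1β and 15.1 to 15.5 TPM with the inhibitor, with Matn1 at 0 in all 6 libraries. Acan, Col9a1, Col9a2, Hapln1 and Cnmd have no values in the analysed table. Only 2 of the 7, Sox9 and Col11a2, had a mean of at least 1 TPM in either group. The members of that list went opposite ways: Sox9 was at 6.44 ± 0.675 TPM and then 11.4 ± 0.0569 TPM, whereas Col11a2 was at 5.01 ± 0.229 TPM and then 3.43 ± 0.185 TPM and the cartilage collagen Col2a1 at 0.217 ± 0.0208 TPM and then 0.04 ± 0.02 TPM. Markers of other cell types also differed between the groups. The 6 listed macrophage markers summed to 11.5 to 14.4 TPM with IL-1β and 124.4 to 135.1 TPM with the inhibitor, nearly all of it Cd68, a lysosomal protein, while Ptprc, which defines leukocytes, was at 0 throughout. The 7 fibroblast markers summed to 1106 to 1151 TPM and 337 to 350.9 TPM, with Thy1 at 0. Nearly all of that sum was Col1a2, and Pdgfra of the same list went the other way, from 2.36 ± 0.286 TPM to 8.69 ± 0.298 TPM. The part of these differences in the values below was not tested. In such bulk samples, fewer cells that express a gene and less RNA of it per cell cannot be told apart.

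GDF15 and FGF21 are circulating hormones that cells release under mitochondrial, nutrient or endoplasmic reticulum stress, and both genes are textbook targets of the integrated stress response, in which ATF4 and CHOP switch on transcription. STC2, a stanniocalcin, and VLDLR, a receptor for triglyceride-rich lipoproteins and reelin, are also induced by ATF4 in many cell types, whereas STC1 and ANGPTL4 are better known from hypoxia, and ANGPTL4 from the PPAR receptors that sense fatty acids. Most angiopoietin-like proteins share a coiled-coil and a fibrinogen-like domain with the angiopoietins. ANGPTL4 blocks lipoprotein lipase, ANGPTL2 is a secreted factor of chronic inflammation, and ANGPTL6 is also called angiopoietin-related growth factor.

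Promoter windows of 250 bases before to 50 bases after a transcription start were taken from RefSeq (GRCm38.p6) for 6 of the 8 genes, with 8 windows in all because Gdf15 and Vldlr have 2 starts each. The C/EBP-ATF element, which ATF4 and CHOP can bind as partners of C/EBP proteins, was searched as TGATGNAA on both strands. It occurred in the window of Fgf21 and in the second window of Vldlr, against 3.97% of the 32851 windows of the whole table. The match began 139 bases before the start of Fgf21 and 200 bases before the second start of Vldlr, in both on the opposite strand and with the same letters. These 2 windows are shown because their genes share the element and differ in level, and the window of Angptl6 because this gene had the largest difference of the 8. Capitals mark the element, each window runs 5′ to 3′ on the strand of its gene, and the positions are chr7:45615441-45615740 on the minus strand for Fgf21, chr19:27216770-27217069 on the plus strand for Vldlr and chr9:20879661-20879960 on the minus strand for Angptl6.
Fgf21: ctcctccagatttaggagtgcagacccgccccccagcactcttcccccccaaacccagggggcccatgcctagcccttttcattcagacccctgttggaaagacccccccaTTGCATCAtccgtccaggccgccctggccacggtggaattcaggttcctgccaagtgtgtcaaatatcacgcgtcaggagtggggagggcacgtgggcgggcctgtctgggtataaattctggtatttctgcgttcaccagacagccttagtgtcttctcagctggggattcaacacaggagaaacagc
Vldlr: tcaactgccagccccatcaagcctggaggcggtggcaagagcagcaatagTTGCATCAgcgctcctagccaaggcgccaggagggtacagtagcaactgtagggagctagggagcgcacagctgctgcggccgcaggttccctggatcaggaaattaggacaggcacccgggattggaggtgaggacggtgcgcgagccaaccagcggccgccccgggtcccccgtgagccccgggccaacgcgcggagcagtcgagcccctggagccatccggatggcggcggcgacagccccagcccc
Angptl6: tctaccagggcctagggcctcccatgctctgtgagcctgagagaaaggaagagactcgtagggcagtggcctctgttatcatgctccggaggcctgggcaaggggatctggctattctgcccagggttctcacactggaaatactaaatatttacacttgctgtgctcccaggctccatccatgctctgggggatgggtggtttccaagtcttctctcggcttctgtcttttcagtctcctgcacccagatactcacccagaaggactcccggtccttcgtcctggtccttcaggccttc

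No TGATGNAA was found in the windows of Angptl6, Stc2, Angptl2 and Gdf15 or in the first window of Vldlr. Other motifs were searched in the same way. The core of the hypoxia response element, ACGTG, was in the windows of Fgf21 and the second window of Gdf15, where 19.6% of all windows hold it. CCACG, the second part of the endoplasmic reticulum stress element, was in those of Fgf21 and Stc2 (32.8% of all windows). Neither the cAMP response element TGACGTCA (1.79% of all windows), nor the AP-1 site TGANTCA (7.81%), nor the PPAR-type repeat DR1 (0.0396%) was found in any of the 8 windows. In the Fgf21 window 1 match of ACGTG overlaps 1 of CCACG read on the opposite strand, and a match describes letters in a window, not a bound site.

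Across the 5 genes with enough reads, Angptl6, Stc2 and Vldlr were higher with NP-G2-044, Angptl4 was lower, and Angptl2 differed little. The hormone genes Gdf15 and Fgf21 and the stanniocalcin gene Stc1 were barely detected in either group. The 5 genes passed edgeR's filter on low counts and were among 11983 fitted, and Gdf15, Fgf21 and Stc1 did not pass it. A gene is called when its adjusted p is under 0.05 and its log2 fold change exceeds 1 or lies under −1. By that rule 3 of the 5 were called higher and 1 lower, beside 6.48% of all fitted genes called higher, 10.1% called lower and 16.6% called in total. TPM did not overlap between the groups for any of the 5, as was the case for 79.4% of all fitted genes. Since this contrast chose the genes, these counts are given for orientation and carry no evidence. Log2 fold changes compare the inhibitor group with the IL-1β group, and their standard errors come from the fit across all genes.

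**Figure D1:**
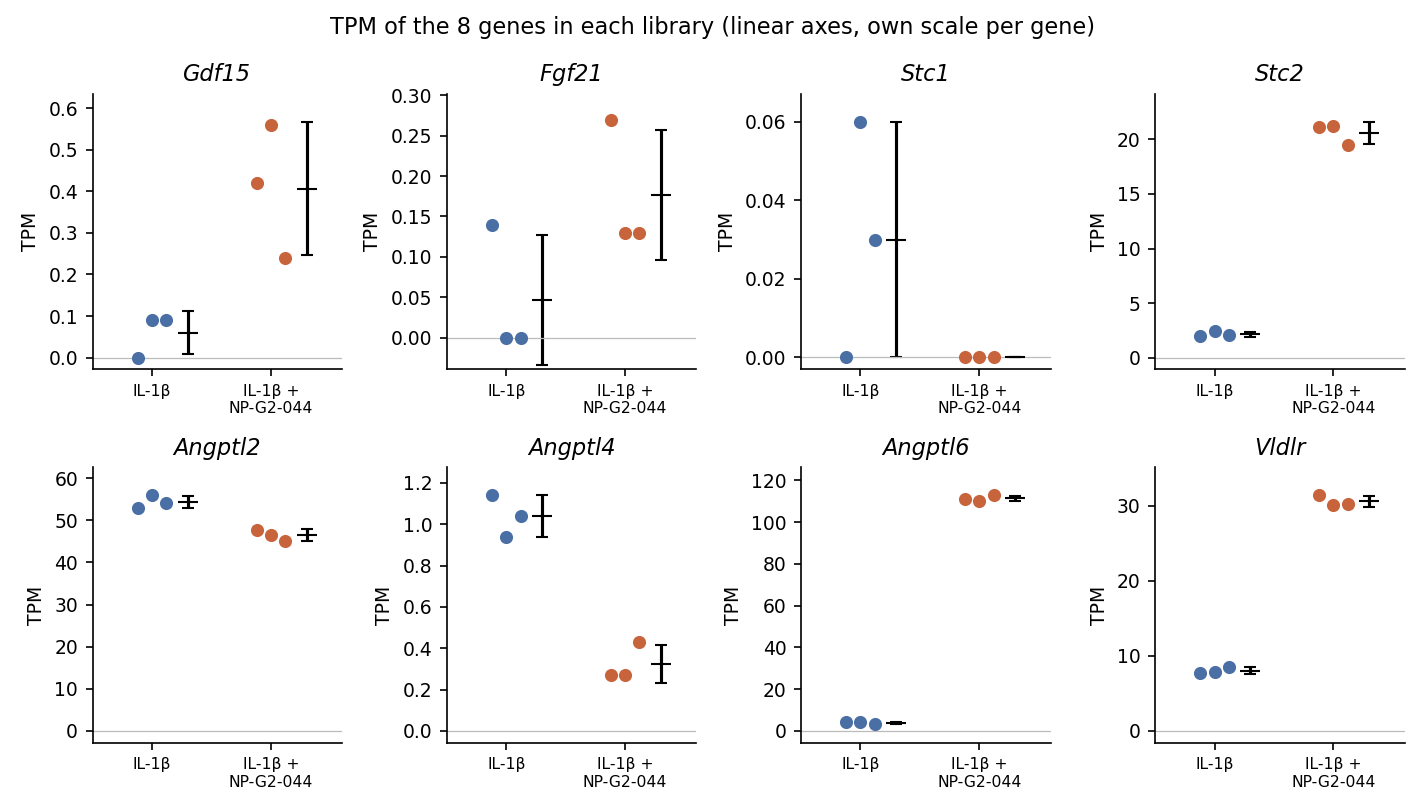
Level of each of the 8 genes in TPM (linear vertical axis, own scale per panel) in the 3 IL-1β libraries (blue) and the 3 inhibitor-treated libraries (orange), with the mean and SD beside the points. Angptl6, Stc2 and Vldlr lie far higher with the inhibitor and Angptl4 lower, while Gdf15, Fgf21 and Stc1 stay below 0.6 TPM in every library.

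Gdf15 (Entrez gene 23886, chromosome 8, 70629393 to 70632456) encodes a distant TGF-β family hormone that acts on the hindbrain to reduce food intake. It was covered by 0, 1 and 1 reads with IL-1β and by 6, 7 and 3 with the inhibitor, or 0, 0.09 and 0.09 TPM against 0.42, 0.56 and 0.24 TPM. All 3 inhibitor-treated libraries lay above all 3 others, at levels of less than 1 TPM. The ratio of the pooled reads, scaled by the group totals, was 7.60, and its exact 95% Clopper-Pearson interval, which reflects counting error alone, reached from 1.79 to 68.1. Since this contrast chose the gene, the interval is no test of a difference. The ratio was 5.07 without IL-1β replicate 1, the library with no read, and 10.2 and 10.1 without IL-1β replicate 2 or 3.

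Fgf21 (Entrez gene 56636, chromosome 7, 45613886 to 45615490) encodes an endocrine fibroblast growth factor of fasting and stress. It had 1, 0 and 0 reads with IL-1β and 2, 1 and 1 with the inhibitor, or 0.14, 0 and 0 TPM against 0.27, 0.13 and 0.13 TPM. The groups overlapped, since the 1 IL-1β library with a read lay above 2 of the inhibitor-treated ones. The ratio of pooled reads was 3.80, with an exact 95% interval from 0.376 to 187.2 that again reflects counting error alone. At this depth the direction cannot be told. The ratio was 2.54 and 2.52 without IL-1β replicate 2 or 3, and without IL-1β replicate 1 no ratio could be formed.

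Stanniocalcins are secreted glycoproteins that were named for a gland of fish and that act on calcium and phosphate handling and on IGF-binding protein cleavage. Stc1 (Entrez gene 20855, chromosome 14, 69029238 to 69041804) had 0, 2 and 1 reads with IL-1β and 0 in each inhibitor-treated library. A count of 0 over the 52886089 reads of the inhibitor group allows up to 3 reads, or 0.0567 CPM, and the IL-1β group itself had 3 reads, so no fold is given. Its exons overlap those of the antisense gene Gm41192 over 229 bases.

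Its paralog Stc2 (Entrez gene 20856, chromosome 11, 31357307 to 31370074) was at 1.96, 2.40 and 2.04 TPM with IL-1β and at 21.1, 21.2 and 19.4 TPM in the inhibitor-treated libraries, from 32, 38 and 33 reads against 360, 370 and 339. The groups were far apart, and replicates within a group differed by little. The mean was 2.13 ± 0.234 TPM with IL-1β and 20.6 ± 1.01 TPM with the inhibitor, 9.66 times as high. The log2 fold change was 3.30 (standard error 0.116). Of the stanniocalcin pair, Stc2 held nearly all of the transcripts, and the ratio of Stc1 to Stc2 in TPM was at most 0.025 in any library.

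Angptl6 (Entrez gene 70726, chromosome 9, 20873808 to 20879727) was at 4.09, 4.16 and 3.44 TPM in the IL-1β libraries and at 111.1, 110.2 and 112.9 TPM in the inhibitor-treated libraries. With 60, 56 and 50 reads against 1732, 1762 and 1799, the separation rested on many reads in all 3 treated cultures. The mean level was 28.6 times as high with the inhibitor, at 3.90 ± 0.397 TPM against 111.4 ± 1.35 TPM, and the log2 fold change was 4.92 (standard error 0.0698). Only 19 of the 11983 fitted genes had a higher log2 fold change. Exons of Angptl6 overlap those of A230050P20Rik, which lies on the opposite strand, over 265 of 1582 bases. That neighbour has no values in the analysed table, and no source used here says if strand was used in counting. Its part in the Angptl6 reads was not tested. The deposited Angptl6 estimates were whole numbers in the IL-1β libraries and not in the 3 inhibitor-treated ones.

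Angptl2 (Entrez gene 26360, chromosome 2, 33216069 to 33247717) was at 52.95, 55.9 and 54.2 TPM with IL-1β and at 47.8, 46.5 and 45.0 TPM with the inhibitor. The groups did not overlap, but the difference was small, with means of 54.4 ± 1.5 TPM and 46.5 ± 1.38 TPM for a log2 fold change of −0.19 (standard error 0.0353). Angptl2 lies inside Ralgps1, a gene of the opposite strand that codes for a guanine nucleotide exchange factor, with no overlap of exons. Ralgps1 rose from 3.23 ± 0.119 TPM to 12.1 ± 0.275 TPM, with a log2 fold change of 1.92 (edgeR, Benjamini-Hochberg adjusted p = 1.49e-32), a size that its nested gene did not share.

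Angptl4 (Entrez gene 57875, chromosome 17, 33773750 to 33781830) was at 1.14, 0.94 and 1.04 TPM with IL-1β and at 0.27, 0.27 and 0.43 TPM with the inhibitor. It had 20, 16 and 18 reads against 5, 5 and 8, and the groups did not overlap. The log2 fold change was −1.64 (standard error 0.358), the least precise of the 5, and the level with IL-1β was 3.22 times that with the inhibitor. Without replicate 3 of the inhibitor-treated libraries, which held 8 of their 18 reads, the log2 fold change was −1.89. On log2(TPM + 1), a scale that shrinks differences of such rare transcripts, it was −0.63 and thus inside the cutoff. Its direction was opposite to that of Angptl6 and Stc2.

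**Figure D2:**
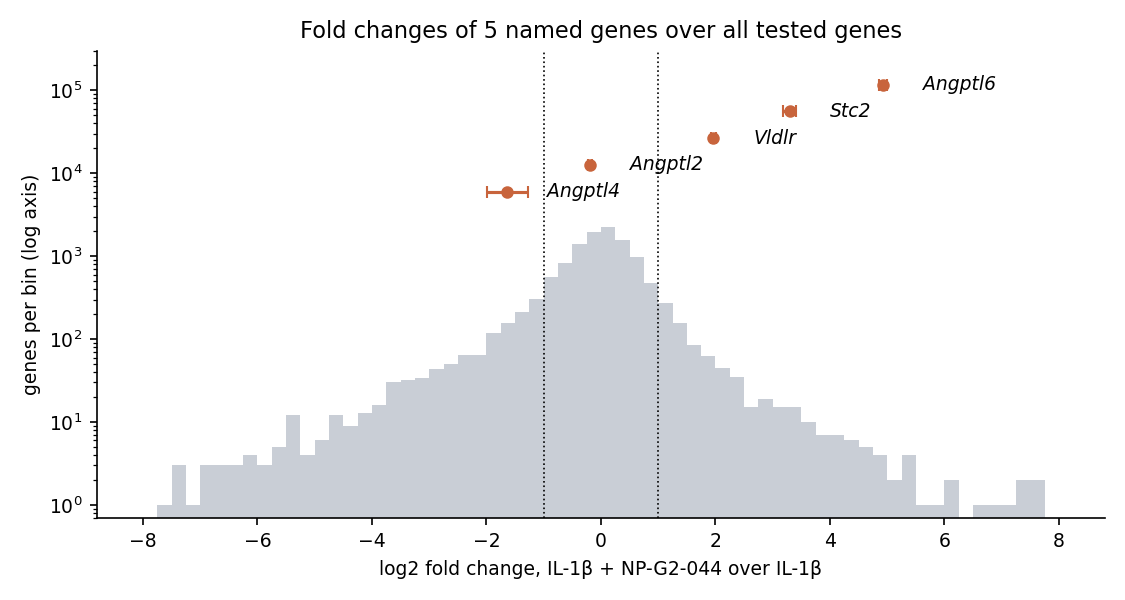
Log2 fold change of the 5 genes with enough reads (orange points at arbitrary heights, bars are standard errors) above a histogram of the log2 fold changes of the 11983 fitted genes (grey, logarithmic vertical axis of genes per bin). Dotted lines mark −1 and 1, and the points run from −1.64 for Angptl4 to 4.92 for Angptl6.

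Per gene length, the angiopoietin-like transcripts differed in makeup between the groups. The table lists 7 Angptl genes, of which Angptl8 was at 0 in all 6 libraries and Angptl1 and Angptl7 had 2 reads each in all. Their summed level was 59.3 ± 1.54 TPM with IL-1β and 158.2 ± 1.09 TPM with the inhibitor. Angptl2 made up 91.0% to 92.2% of that sum in the IL-1β libraries and 28.4% to 30.0% in the inhibitor-treated libraries. Angptl6 went the other way, from 5.86% to 7.03% with IL-1β to 69.8% to 71.3% with the inhibitor. Angptl4 stayed a minor transcript, at 1.54% to 1.96% and then 0.170% to 0.272%. The ratio of Angptl6 to Angptl2 was 0.0772, 0.0744 and 0.0635 with IL-1β against 2.33, 2.37 and 2.51 with the inhibitor.

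**Figure D3:**
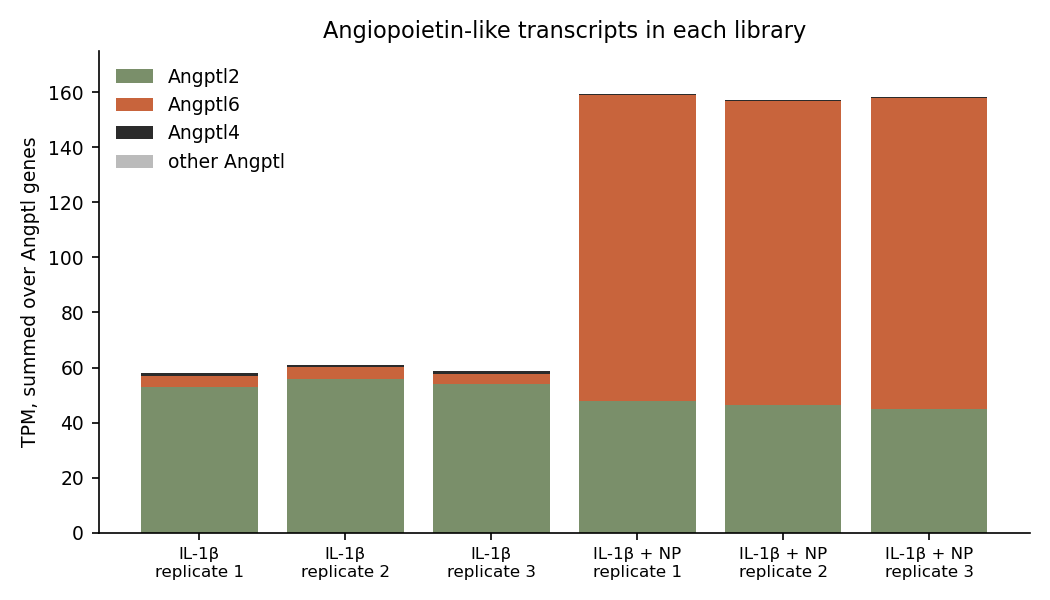
Summed TPM of the 7 listed Angptl genes in each of the 6 libraries, stacked by gene, with the axis starting at 0. The Angptl2 block is of similar height in all libraries, and the Angptl6 block makes up 69.8% to 71.3% of the sum with the inhibitor.

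Vldlr (Entrez gene 22359, chromosome 19, 27216484 to 27254231) was at 7.69, 7.91 and 8.51 TPM in the IL-1β libraries and at 31.4, 30.1 and 30.2 TPM in the inhibitor-treated libraries. The means were 8.04 ± 0.424 TPM and 30.6 ± 0.711 TPM, 3.81 times apart, and the log2 fold change was 1.96 (standard error 0.0395). It is the only cell-surface receptor among the 8.

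In order of level with IL-1β, Angptl2 stood first and was followed by Vldlr, Angptl6, Stc2 and Angptl4, each apart from its neighbours in all 3 libraries. Gdf15, Fgf21 and Stc1 came last with overlapping values. With the inhibitor the order was Angptl6, Angptl2, Vldlr and Stc2, again without overlap. Angptl4 and Gdf15 overlapped there, at 0.27 to 0.43 TPM and 0.24 to 0.56 TPM, as did Gdf15 and Fgf21.

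For each of the 5 fitted genes, the other genes with the most similar pattern were sought as the smallest root mean square difference of log2 CPM, reads scaled to library size, centred per gene, over the 6 libraries and 11060 candidates with a mean of at least 1 TPM. With 2 groups, such likeness mostly reflects a similar fold change. Nearest to Angptl6 was Chac1, a glutathione-degrading enzyme of the ATF4 response, at a difference of 0.107, followed by Cdsn at 0.159. Nearest to Stc2 were Plk2, a stress-responsive kinase, at 0.0865 and Hmox1, the heme oxygenase, at 0.1. Vldlr was nearest to Paqr3 at 0.0299 and to Ralgps1, the host gene of Angptl2, at 0.0489. Angptl4 was nearest to Slc25a23 at 0.0544 and Sertad3 at 0.0607, and Angptl2 to Psmd10 at 0.0132 and Phka1 at 0.0139, genes whose own log2 fold changes were −0.19 and −0.20.

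The genes around the 8 were examined in lists of related genes, with the same test and cutoffs. The median log2 fold change over all fitted genes was 0.002. Of the 11983 fitted genes, 9584 had an adjusted p below 0.05, so such a p alone singles out no gene. Of 11 genes for hormone receptors, co-receptors, the FGF21-cleaving protease and other endocrine FGFs, 5 could be fitted and 0 were called. These are too few genes to set against the 16.6% called among all fitted genes. An unadjusted p below 0.05, which most fitted genes had, was reached by Fgfr1 and Fgfr2. Fgfr1, the main FGF21 receptor, was abundant, with 81.1 ± 0.886 TPM in the IL-1β libraries against 107.5 ± 3.24 TPM, with a log2 fold change of 0.45 (adjusted p = 4.33e-20 in edgeR), below the cutoff in size. Its obligate co-receptor Klb was at 0.187 ± 0.0551 TPM and 0.24 ± 0.0361 TPM (adjusted p = 0.323 in edgeR). Gfral, the GDF15 receptor of the brainstem, has no values in the analysed table.

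In the lipoprotein lipase system, 6 of 14 genes could be fitted and 0 were called, again too few to compare, with a median log2 fold change of 0.018. Unadjusted p was below 0.05 for Furin, Lmf1 and Lmf2, as it was for most fitted genes. Lpl, the lipase that ANGPTL4 inhibits, was covered by 7 reads in each group, and Gpihbp1, its endothelial anchor, has no values in the analysed table. In the wider angiopoietin family, 5 of 14 genes could be fitted, too few to set against the 16.6% called among all fitted genes. Of the 5, 2 were called, both lower. They were Angpt1 and Angpt2, ligands of the endothelial receptor TIE2, at log2 fold changes of −3.26 and −2.59 (adjusted p = 1.54e-09 and 5.57e-14 in edgeR). Both are rare transcripts, with 67 against 7 reads and 174 against 30 reads, and were named after their values were seen.

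In the receptor family of VLDLR, 17 of 22 receptors, ligands and regulators could be fitted, 1 was called higher and 3 lower, with a median of −0.32. That is 23.5% of the 17, near the 16.6% called among all fitted genes. The 1 gene called higher was Lrp8, which encodes the other reelin receptor ApoER2, from 12.4 ± 1.18 TPM to 25.6 ± 0.551 TPM, a log2 fold change of 1.07 (adjusted p = 1.6e-22 in edgeR). It lay close to the cutoff, at 1.002 without IL-1β replicate 1 and at 0.99, no longer called, on log2(TPM + 1). Mylip, which encodes the ubiquitin ligase IDOL that degrades VLDLR and ApoER2, fell from 21.5 ± 0.35 TPM to 5.86 ± 0.261 TPM, a log2 fold change of −1.84 (adjusted p = 5.48e-30). Sorl1, a sorting receptor, fell by 2.61 on the log2 scale. Thbs1, which encodes thrombospondin-1, a matrix protein that binds VLDLR among other receptors, fell from 190.9 ± 11.9 TPM to 7.47 ± 0.241 TPM.

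Of the 20 genes of the ATF4-CHOP response, all could be fitted, and 16 were called higher (80%, against 6.48% of all fitted genes) and 0 lower, with a median log2 fold change of 1.97. Some of these genes were known from earlier results to rise, so the list is no independent evidence of its direction. Atf3, a stress transcription factor, rose from 7.97 ± 0.504 TPM to 303.2 ± 5.54 TPM. Trib3, a pseudokinase that feeds back on ATF4, rose by 5.06 and Chac1 by 4.69 on the log2 scale. Atf4 itself had a log2 fold change of 2.30 and Ddit3, which encodes CHOP, one of 4.05 (named after their values were seen). The 4 genes that were not called were Psat1 at 0.65, Cebpb at −0.06, Nfe2l2 at −0.47 and Ddit4 at −0.48. Beside these, Gdf15 and Fgf21 reached means of 0.407 and 0.177 TPM.

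Of the 24 genes of the PPAR and fasting response, 18 could be fitted, 2 were called higher and 4 lower, with a median of −0.38. That is 33.3% of the 18, where 16.6% of all fitted genes were called. Pparg, the adipocyte nuclear receptor, fell from 2.45 ± 0.625 TPM with IL-1β to 0.117 ± 0.0551 TPM, a log2 fold change of −4.30 (adjusted p = 1.57e-14 in edgeR). Fabp4, a fatty acid carrier, fell by 2.96 and Acadm, an enzyme of fatty acid oxidation, by 1.76 on the log2 scale. Fabp4 rested on few reads, 47 against 6, where Acadm had 3561 against 1103. Pdk4 was the fourth gene called lower. The genes called higher were the rare co-activators Ppargc1a and Ppargc1b, and 1 gene was called higher without IL-1β replicate 3. The 4 adipocyte markers in the table summed to 2.87 to 5.09 TPM with IL-1β and to 0.36 to 0.74 TPM with the inhibitor, and nearly all of that sum was Fabp4, which is in both lists. The defining marker Adipoq had 2 reads in each group, Plin1 had 0 and 1, and Retn was at 0 in both.

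Of 20 genes of the HIF response, 17 could be fitted, 3 were called higher and 4 lower, with a median of −0.48. That is 41.2% of the 17, where 16.6% of all fitted genes were called. Ndrg1 rose from 12.4 ± 0.643 TPM to 162.6 ± 3.36 TPM and Vegfa, the angiogenic growth factor, from 28.7 ± 1.01 TPM to 90.1 ± 1.63 TPM, and Ero1a was the third. Vegfa is also in the ATF4-CHOP list. Ankrd37 fell by 2.93 on the log2 scale, and Ldha, Bnip3 and Egln3 fell as well. In the p53 response, all 15 genes could be fitted, 6 were called higher and 0 lower, with a median of 0.81, and 40% were thus called higher where 6.48% of all fitted genes were. Plk2 rose by 3.30, Sesn2, which is also in the ATF4-CHOP list, by 3.04 and Cdkn1a by 1.90 on the log2 scale, whereas Trp53 had a log2 fold change of −0.07 (adjusted p = 0.179 in edgeR).

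**Figure D4:**
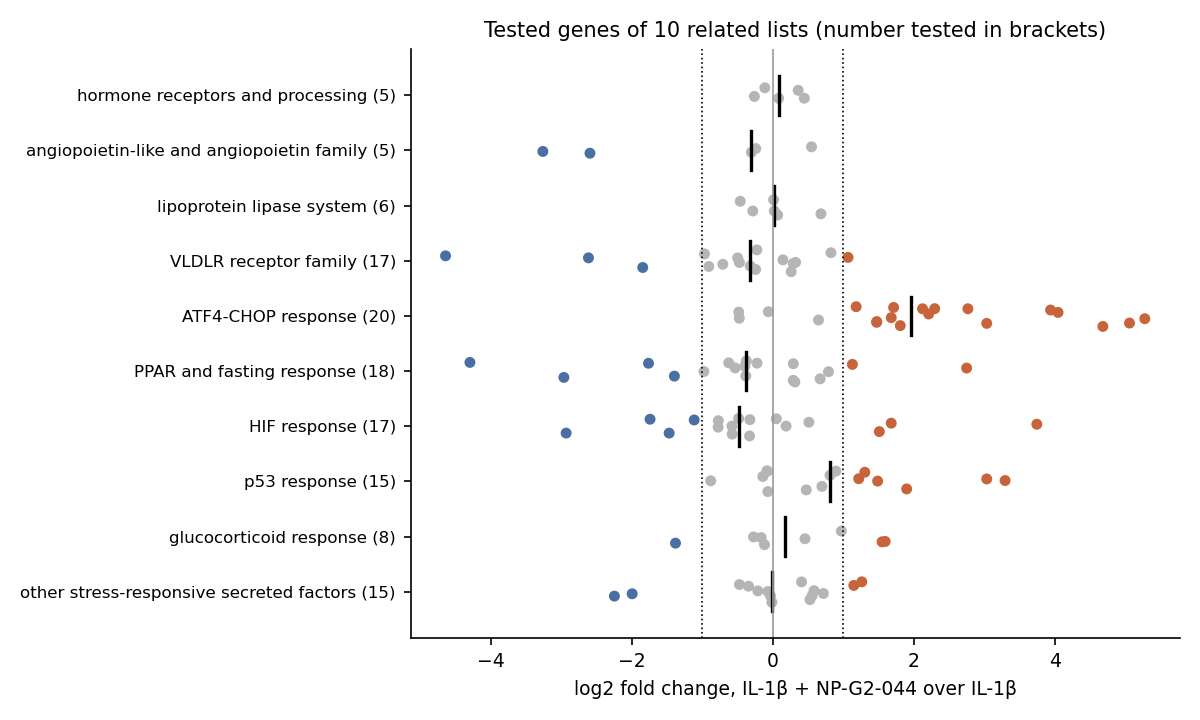
Log2 fold change (horizontal axis, inhibitor over IL-1β) of every fitted gene in the 10 lists of related genes, with genes called higher in orange, called lower in blue and not called in grey, and black bars at the medians. The ATF4-CHOP list stands farthest to the right, with 16 of 20 genes called higher, and the lists of hormone receptors and of the lipoprotein lipase system hold no called gene.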

How the data were processed

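The members and lists were chosen with earlier results of these data known. RNA of 6 cultures was sequenced by BGI, per the methods. The submitters' processing notes name cutadapt, HISAT2 2.0, StringTie and the mm10 build, and the annotation was not stated. The authors deposited 3 values per gene in each library: an estimated count (10.17% to 11.06% are not whole), TPM, scaled to transcript length and library total, and FPKM. The deposited FPKM and group means were not used.

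Estimated counts were rounded, filtered with filterByExpr (minimum count of 10, 11983 of 16880 genes kept), normalized with TMM (factors 0.997 to 1.002) and tested in edgeR 4.0.16 (quasi-likelihood, R 4.3.3) without covariates, with Benjamini-Hochberg adjustment over all fitted genes. Calls needed an adjusted p under 0.05 and a log2 fold change beyond 1 or −1. The standard error is the log2 fold change over the square root of F. The steps were tested on simulated counts. Alternatives were DESeq2 1.42.0, limma 3.58.1 on log2(TPM + 1) and log2(TPM + 0.1), other scalings and filters, the replicate number as a block and each library left out. TMM-scaled totals for the ratios of Gdf15 and Fgf21 were an alternative chosen after seeing the data. P-values set the difference between the groups against the spread between replicate libraries, which may be technical in part. Chi-square per gene was 1.54 to 2.39 between replicates, where sampling noise alone gives 1, against 133 to 136 between groups, and each library was counted as 1 replicate. Intervals and limits of a 0 count (3 reads) cover counting error only.

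Named from each list were up to 3 called genes with the largest fold change (mean level 1 TPM or more), the receptors and lipases of the 8 genes, 2 genes of most similar pattern per fitted gene, and Fscn1. Others were named after their values were seen. Positions and exons are those of GENCODE M21 (GRCm38, the same assembly as mm10), and the 8 Entrez IDs matched RefSeq. A planned comparison of protein sequences was not made, because no protein sequences were at hand. Promoters of Angptl4 and Stc1 were not used here. Some genes of the lists are not reported here.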

Additional observations from a re-analysis of the deposited data

How the results depend on the processing

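The log2 fold changes of Angptl6, Stc2, Vldlr, Angptl4 and Angptl2 kept their direction under all alternatives that gave them a value. On log2(TPM + 1) with limma they were 4.52 for Angptl6, 2.79 for Stc2, 1.81 for Vldlr and −0.63 for Angptl4, since the pseudocount shrinks changes of low genes. On log2(TPM + 0.1) Angptl6 was at 4.81 and Angptl2 at −0.23. With each library left out, Angptl6 lay between 4.84 and 4.98, Stc2 between 3.25 and 3.38, Vldlr between 1.94 and 1.998, Angptl4 between −1.89 and −1.52 and Angptl2 between −0.21 and −0.17. The filter that asks for 10 CPM in 3 libraries left no value for Angptl4.

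Over all genes, limma on log2(TPM + 1) called 514 higher and 802 lower, and the filter at 10 CPM called 484 and 680, against 776 and 1211. In the lists, log2(TPM + 1) called 1 angiopoietin family gene lower, 0 of the VLDLR receptor family higher, 0 PPAR genes higher, and 1 secreted factor higher and 0 lower. On log2(TPM + 0.1), 1 PPAR gene was higher. The 10 CPM filter called 0 angiopoietin family genes lower, 0 PPAR genes higher, 2 HIF genes lower, 3 p53 genes higher, and 1 secreted factor higher and 0 lower. Without any filter, 1 hormone receptor gene and 1 angiopoietin family gene were called higher. Gdf15, at a log2 fold change of 2.72 from 18 reads, then also passed both cutoffs, while Fgf21 and Stc1 did not. Since this contrast chose Gdf15, Fgf21 and Stc1, passing or missing the cutoffs carries no evidence for them. With each library left out, 1 to 2 PPAR genes were higher. Past the cutoffs in the main test and inside them on log2(TPM + 1) was Angptl4, as given above. Of the other genes named by rule, so were Ccn2, Lif and Lrp8, at −0.90, 0.61 and 0.99. Genes named after their values were seen were not followed singly. By the list counts on that scale, Ppargc1a, Ppargc1b and Fst were not called, and at most 1 of Angpt1 and Angpt2 was. The HIF genes called lower went from 4 to 3.

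Replicate numbers are shared by both groups, but nothing says that they pair the cultures. Deviations of same-numbered libraries from their group means correlated at −0.093, −0.024 and 0.026. With the replicate number as a block, 775 genes were called higher and 1209 lower, and Angptl6 stayed at 4.92. Depth limits Gdf15, Fgf21 and Stc1, for which 18, 5 and 3 reads in all leave wide intervals.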

Other observations

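Of 20 other secreted factors that respond to stress or injury, 15 could be fitted in edgeR, 2 were called higher and 2 lower with NP-G2-044, with a median log2 fold change of −0.01. These 4 are 26.7% of the 15, where 16.6% of all fitted genes were called. Inhba, which encodes the activin A subunit, rose from 16.0 ± 0.221 TPM with IL-1β to 35 ± 0.422 TPM with the inhibitor (adjusted p = 1.28e-33 in edgeR). Lif, an IL-6 family cytokine, rose by 1.26 on the log2 scale. Ccn2, a matricellular growth factor, fell by 1.99 and Fst, the activin antagonist follistatin, by 2.25. All of Lif, Ccn2 and Fst are rare transcripts, with 81 against 205, 111 against 29 and 42 against 9 reads. Of 10 genes of the glucocorticoid response, 8 could be fitted, 2 were called higher and 1 lower, with a median of 0.17. That is 37.5% of the 8, beside the same 16.6% of all fitted genes. Mt1, a metallothionein, rose from 614.3 ± 24.2 TPM to 1841 ± 112 TPM and Tsc22d3, which encodes GILZ, by 1.55 on the log2 scale, and Sgk1 fell by 1.38.

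Endothelial markers summed to at most 0.73 TPM, skeletal muscle markers to at most 0.45 TPM and hepatocyte markers to at most 0.13 TPM in any library. Cd68 was at 12.4 ± 1.68 TPM with IL-1β and at 129.9 ± 5.48 TPM with the inhibitor (n = 3 each).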
